A study of Mus musculus with 8 samples.

Results

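The Myc, Max and Mxd network was taken as 10 genes, Myc, Mycn, Mycl (Mycl1 in the array's design), Max, Mxd1, Mxd3, Mxd4, Mxi1, Mnt and Mga, found by the gene name that the array gives each probe. These genes had 12 of the 55681 probes, with a pair of probes each for Mxd1 and Mxd4. A probe was kept when both arrays of a time, for 1 time or more, called it well above background. Of the 12 probes 11 were kept, as were 28602 of all probes. Of the 20833 genes tested, 9 were network members. Mxi1 had no kept probe and was not tested. The cells were mouse embryonic fibroblasts (MEFs) without Csk, the kinase that holds Src family kinases in their inactive form, and carried the vector pBKT2-c-Src, from which c-Src is expressed in the presence of doxycycline (Dox). RNA was taken at 0, 6, 24 and 72 h of c-Src expression with 1 µg/ml Dox, with 2 arrays per time and 8 in all. All groups, the 0 h control included, lacked Csk and carried the vector. Dox, time in culture and c-Src changed together between the groups and cannot be told apart. The labels do not say whether the cells were a pool or a clone, or whether arrays of the same time came from separate cultures, so p-values measure only the spread between these samples, and that spread may be technical.

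Myc, N-Myc and L-Myc are basic helix-loop-helix leucine zipper transcription factors that bind DNA as dimers with Max, preferentially at the E-box CACGTG, and activate genes of growth, ribosome assembly and metabolism. The Mxd proteins, Mxi1 and Mnt compete for Max and for the same sites and recruit Sin3 and histone deacetylases, and Mga brings Max into a Polycomb-type repressor complex. Mlx is a Max-like protein with its own partners, and some Mxd proteins and Mnt dimerize with it. In fibroblasts, Myc is known as an early response gene of growth factors and of Src.

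Levels are given as log2 of the processed fluorescence intensity relative to the 75th percentile of the array, which is 0 on this scale, so that a level describes 1 probe across arrays and is not compared between genes. Src stood at -1.35 and -1.19 on the 0 h arrays and between 3.02 and 3.49 on the other 6, and on all 8 arrays the Csk probe failed to rise well above background. Between 49.9% and 54.7% of the spots of an array were well above background, and replicate arrays correlated at 0.9964 to 0.9975 across tested genes. Of 10 fibroblast markers, 9 were well above background on all 8 arrays and Thy1 on none. Their mean level was 3.52 and 3.53 at 0 h, 3.62 and 3.57 at 6 h, 3.24 and 3.37 at 24 h and 2.99 and 3.12 at 72 h, so the 24 and 72 h arrays were below the others, and the part of this shift in the results at those times was not tested. Of the markers of other cells, 4 of 7 for epithelium, 1 of 6 for macrophages, 2 of 6 for endothelium and 3 of 4 for lymphocytes were well above background on all 8 arrays, with mean levels per list between -5.32 and -2.4 on every array, and Epcam, Cdh1, Ptprc, Adgre1 and Cdh5 were not well above background on any array. In such bulk RNA, fewer cells of a type and less RNA per cell cannot be told apart.

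The E-box is the site preferred by dimers of Myc with Max, and the network's own promoters were searched for it. The RefSeq table of promoter windows (build GRCm38.p6, from 250 bases before to 50 after a transcript's start) had windows for 9 of the 10 members. On either strand, the palindrome CACGTG was present in windows of Max, Mnt and Mxd4, which were 3 of 11 windows (27.3%), against 7.15% of 32851 windows in the table. In Max the motif began 3 bases before the start and ran across it. The sequences around the other E-boxes are shown, with the E-box in capitals. At 24 and 72 h Mnt was above 0 h and Mxd4 below, as described in turn, while from 6 to 24 h both fell. Any part of the motif in this was not tested. The Mnt stretch lies at chr11:74830741-74830866 on the + strand and the Mxd4 stretch at chr5:34187864-34187960 on the - strand.
Mnt: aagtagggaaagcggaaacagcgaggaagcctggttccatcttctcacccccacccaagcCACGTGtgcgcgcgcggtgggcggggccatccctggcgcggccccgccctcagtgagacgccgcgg
Mxd4: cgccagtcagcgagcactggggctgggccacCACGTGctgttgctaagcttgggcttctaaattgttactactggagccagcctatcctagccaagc
The E-box began at -123 from the start in Mnt and at -219 in Mxd4. The E2F-type motifs TTTGGCGC and TTTCCCGC, searched on both strands, were present in the window of Mycn, at -183 and -168, and in 1.56% of all windows. A match describes the letters and is not a binding site.

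By 72 h most members of the network had changed. Myc, Max and Mnt were higher at 72 h than at 0 h, while Mycn, Mycl, Mxd1, Mxd3 and Mxd4 were lower. Myc rose 4.13-fold, the largest rise among the members. The largest fall was that of Mycl, 2.63-fold to levels near background, and Mxd3 fell 2.38-fold. This order depends on the setting. With normexp background correction the Mycl log2 difference was -0.49, while that of Mxd3 was between -1.32 and -0.98 under all 19 alternatives. At 6 h, 3 members had risen, Myc, Mxd1 and Mnt, where 10.3% of all tested genes rose, and Mxd3 had fallen, where 7.24% fell. Mxd1 is counted here by its brighter probe, and its dimmer probe differed by -0.23 at 6 h (limma adjusted p = 0.0529 over all kept probes). At 24 h, Myc and Mnt were higher (21.4% of all genes) and Mxd3, Mxd4 and Mycl lower (20.1%). The counts at 72 h, 3 higher and 5 lower, stood against 27.4% and 24.6% of all genes. Called means an adjusted p under 0.05 in limma, fitted over all 8 arrays and adjusted by the Benjamini-Hochberg method over the 20833 genes. In all, 44.4% of the 9 tested members were called at 6 h, 55.6% at 24 h and 88.9% at 72 h, against 17.6%, 41.5% and 52% of all tested genes. The members were chosen with earlier results of these data known, and the 3 comparisons share the 0 h arrays. Of the 25 calls made in the 5 comparisons between times, 14 held under all 19 alternative settings, and none changed sign under any of them. The setting with every probe tested left the differences as they were, so it could not turn a sign. The deposited table's values differ by at most 0.497%. No setting used a gene's dimmer probe alone, and the Mxd1 call at 6 h is among the 14 although its dimmer probe differed by -0.23. Where a call below was lost without 1 array, the time it came from was left with a single array, assumed to vary like the other times.

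**Figure D1:**
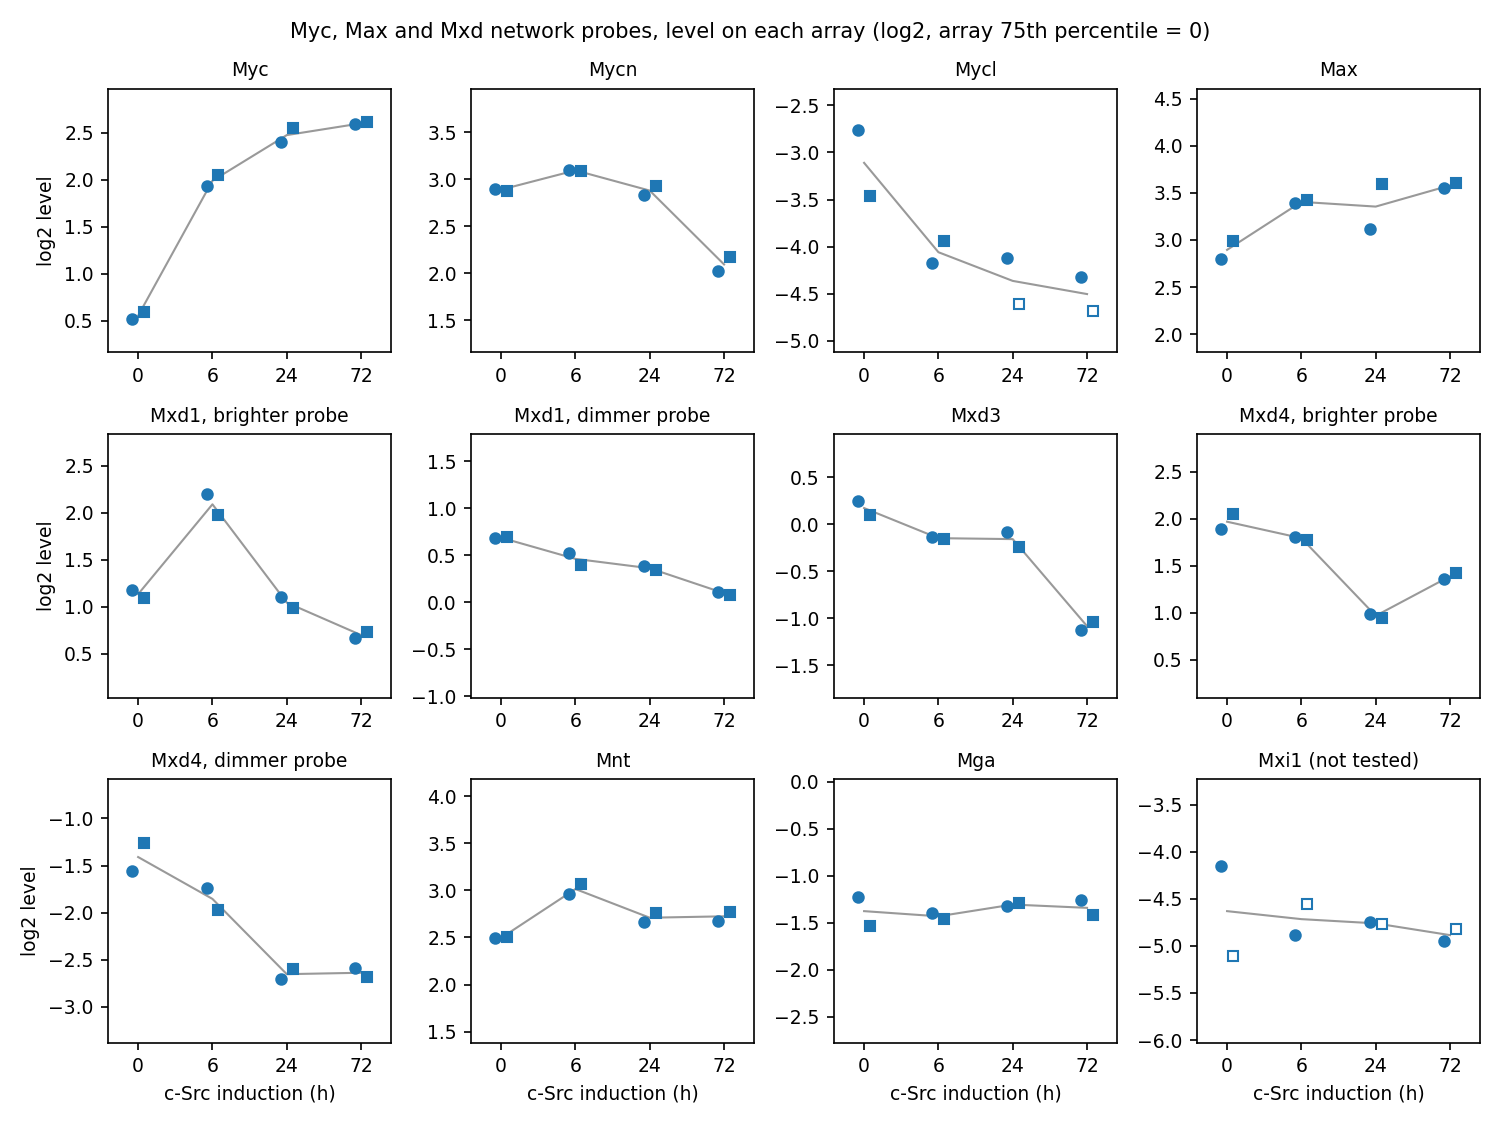
Level of each network probe on each array (log2, 0 is the array's 75th percentile) against hours of c-Src induction, with circles for replicate 1, squares for replicate 2, lines through the means and open symbols for spots not well above background. All panels span the same height; Myc climbs from about 0.55 to 2.6, Mxd3 drops between 24 and 72 h, and the brighter Mxd1 probe peaks at 6 h.

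**Figure D2:**
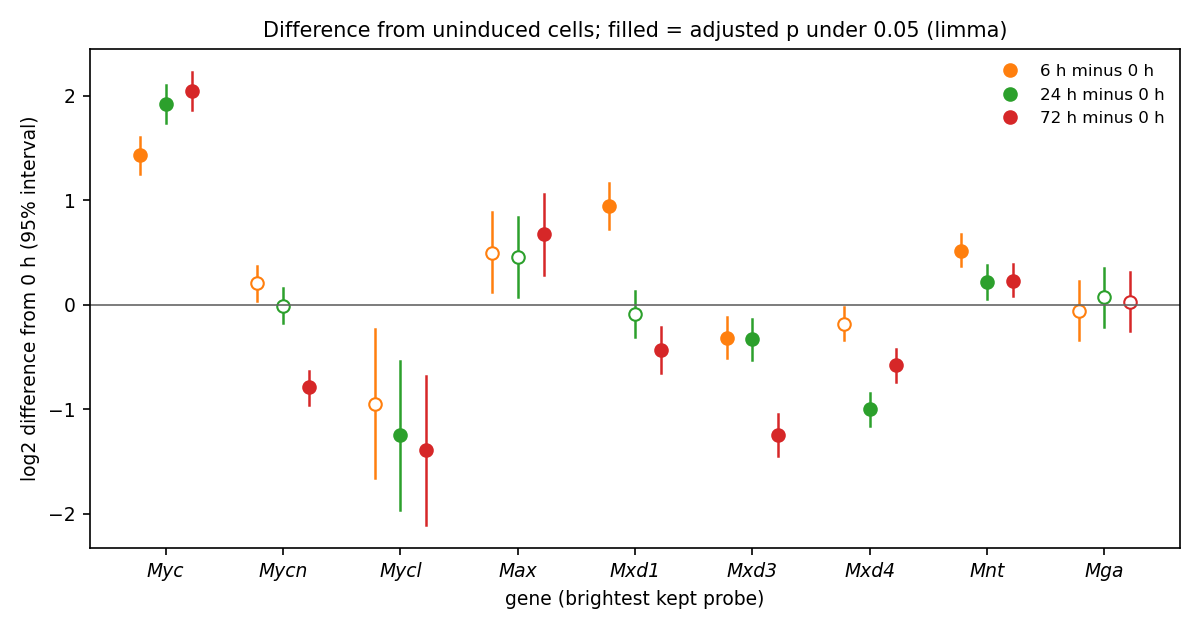
Log2 difference from 0 h of the 9 tested members at 6, 24 and 72 h, with the 95% interval from limma; filled circles had an adjusted p under 0.05. Myc stands above 0 at all 3 times, Mycn is called at 72 h, where it is below 0, and at neither other time, and Mga stays at 0 with intervals within 0.35 of it.

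Myc, the founding member, was measured by a probe spotted 2 times on each array (chr15:61821417-61821476, mm9). Its log2 level was 0.52 and 0.59 on the 0 h arrays, 1.93 and 2.05 at 6 h, 2.4 and 2.55 at 24 h, and 2.59 and 2.61 at 72 h. No value of 1 time overlapped with those of another, and the lowest were those at 0 h. The log2 difference from 0 h was 1.43 ± 0.07 (SE) at 6 h, a 2.7-fold rise (limma adjusted p = 0.000421), 1.92 ± 0.07 at 24 h (adjusted p = 8.8e-05) and 2.05 ± 0.07 at 72 h (adjusted p = 4.03e-05). Most of the rise was present at 6 h. The step from 6 to 24 h added 0.49 ± 0.07 (adjusted p = 0.00746). The step from 24 to 72 h was 0.12 (95% interval -0.06 to 0.3, adjusted p = 0.271), so these neighbours in the order of levels did not differ beyond their spread. The 3 differences from 0 h and the step to 24 h were called under all 19 alternatives, with values of 1.35 to 1.49 at 6 h and 1.96 to 2.23 at 72 h.

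Mycn, the paralog best known from neural and embryonic tissue, was detected in these fibroblasts on all arrays (chr12:12943193-12943252, mm9). Its level was 2.9 and 2.88 at 0 h, 3.1 and 3.09 at 6 h, 2.83 and 2.93 at 24 h, and 2.02 and 2.17 at 72 h. The 72 h arrays stood below all others and the 24 h arrays on either side of those at 0 h. The differences at 6 h (0.21 ± 0.07, adjusted p = 0.087) and 24 h (-0.01, 95% interval -0.17 to 0.16, adjusted p = 0.952) were not called. At 72 h Mycn was 1.73-fold lower than at 0 h (-0.79 ± 0.07, adjusted p = 0.000348), and the step from 24 to 72 h was -0.78 ± 0.07 (adjusted p = 0.00316). Both calls held under all 19 alternatives. Mycn thus fell in an interval in which the Myc difference was 0.12 and not called; the contrast of these steps between the genes was not tested.

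Mycl, which encodes L-Myc, was near background on the later arrays (chr4:122679535-122679594, mm9). Its level was -2.76 and -3.46 at 0 h, -4.18 and -3.94 at 6 h, -4.12 and -4.61 at 24 h, and -4.32 and -4.69 at 72 h. The 0 h arrays were above all others, and the replicate 2 arrays at 24 and 72 h were not well above background. The difference was -0.95 ± 0.29 at 6 h (adjusted p = 0.0781), -1.25 ± 0.29 at 24 h (adjusted p = 0.0176) and -1.39 ± 0.29 at 72 h (adjusted p = 0.00956). The 24 h call was lost without 0 h replicate 1 (-0.9) or 24 h replicate 2 (-1), and the 72 h call without 72 h replicate 2 (-1.21). The 24 h call was also lost with no filter on dim probes (adjusted p = 0.0556) and with only the arrays compared (adjusted p = 0.0545). With normexp background correction the sizes shrank to -0.4 at 24 h (adjusted p = 0.0382) and -0.49 at 72 h (adjusted p = 0.0137).

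Max, the obligate partner of Myc and of its antagonists, was measured at chr12:78038272-78038331 (mm9). Its level was 2.8 and 2.99 at 0 h, 3.39 and 3.42 at 6 h, 3.12 and 3.59 at 24 h, and 3.55 and 3.61 at 72 h. All 6 later arrays lay above those at 0 h, while the 24 h arrays differed from each other by more than those of any other time. The difference from 0 h was 0.5 ± 0.15 at 6 h (adjusted p = 0.0809), 0.46 ± 0.15 at 24 h (adjusted p = 0.063) and 0.68 ± 0.15 at 72 h, a 1.6-fold rise (adjusted p = 0.0139). The 72 h call was lost without 0 h replicate 1 (0.58, adjusted p = 0.0693), 72 h replicate 1 (0.71, adjusted p = 0.0515) or 72 h replicate 2 (0.65, adjusted p = 0.0649). With all arrays, Max was also called at 6 and 24 h under normexp correction (0.46, adjusted p = 0.0281, and 0.41, adjusted p = 0.0205) and under median scaling (0.55, adjusted p = 0.0329, and 0.6, adjusted p = 0.00829). Without 24 h replicate 1, it was called at 6 h (0.5, adjusted p = 0.0202) and 24 h (0.69, adjusted p = 0.00738), and without 24 h replicate 2 at 6 h (adjusted p = 0.0202) and in the step from 24 to 72 h (0.46, adjusted p = 0.0377). No difference between 6, 24 and 72 h was called in limma with all arrays.

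Mxd1, the antagonist long known as Mad1, had probes whose first bases lie 1863 bases apart (chr6:86599053-86599112 and chr6:86597190-86597249, mm9), and they disagreed at 6 h. The brighter probe read 1.18 and 1.09 at 0 h, 2.2 and 1.98 at 6 h, 1.1 and 0.99 at 24 h, and 0.67 and 0.73 at 72 h. Its 6 h arrays stood above all others and its 72 h arrays below. The dimmer probe read 0.68 and 0.69 at 0 h, 0.52 and 0.4 at 6 h, 0.38 and 0.34 at 24 h, and 0.11 and 0.08 at 72 h, with both 0 h arrays above all later ones. At 6 h the brighter probe was 1.94-fold higher than at 0 h (0.95 ± 0.09, adjusted p = 0.003), with a 95% interval of 0.73 to 1.17, and the interval of the dimmer probe ran from -0.37 to -0.08 (-0.23 ± 0.06, adjusted p = 0.0529 over all kept probes). The brighter probe then fell between 6 and 24 h by 1.04 ± 0.09 on the log2 scale (adjusted p = 0.0016). Under the mean over both probes the 6 h difference was 0.36 (adjusted p = 0.0217).

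By 72 h both Mxd1 probes were below 0 h. The brighter differed by -0.43 ± 0.09 (adjusted p = 0.00906) and the dimmer by -0.59 ± 0.06 (adjusted p = 0.000624). At 24 h the brighter probe's difference was -0.09 (adjusted p = 0.457) and the dimmer probe's -0.33 ± 0.06 (adjusted p = 0.00731). The step from 24 to 72 h was -0.34 ± 0.09 on the brighter probe (adjusted p = 0.0447), a call lost in 12 of the 19 alternatives, among them the removal of any 0, 24 or 72 h array (adjusted p = 0.0675 to 0.173), and -0.27 ± 0.06 on the dimmer (adjusted p = 0.0294), lost in 9 of 17, again without any of those arrays. The brighter probe's 72 h call was lost without 72 h replicate 1 (-0.4, adjusted p = 0.0505) and under median scaling (-0.25, adjusted p = 0.157). Which transcripts each probe binds was not determined here.

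**Figure D3:**
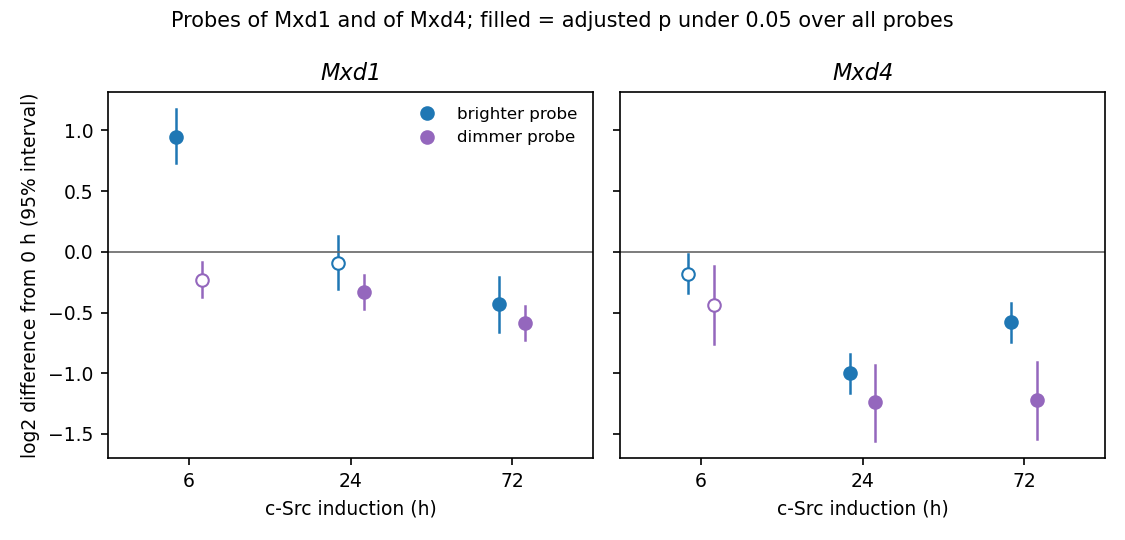
Log2 difference from 0 h with its 95% interval for both probes of Mxd1 (left) and of Mxd4 (right) at 6, 24 and 72 h; filled symbols had an adjusted p under 0.05 over all kept probes. The Mxd1 probes lie on opposite sides of 0 at 6 h (0.95 and -0.23) and both below it at 72 h, and the Mxd4 probes are both below 0 at every time.

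Mxd3, an antagonist known for expression in S phase, fell late (chr13:55427000-55427059, mm9). It read 0.24 and 0.1 at 0 h, -0.14 and -0.16 at 6 h, -0.08 and -0.24 at 24 h, and -1.13 and -1.04 at 72 h. The 72 h arrays were well below the rest, and the 6 and 24 h arrays overlapped with each other below those at 0 h. The difference from 0 h at 72 h was -1.25 ± 0.08, which is 2.38-fold lower (adjusted p = 0.000144), and the step from 24 to 72 h was -0.92 ± 0.08 (adjusted p = 0.0032). Both calls held under all 19 alternatives. The earlier differences were small, -0.32 ± 0.08 at 6 h (adjusted p = 0.0466) and -0.33 ± 0.08 at 24 h (adjusted p = 0.02). The 6 h call was lost in 11 of 19 alternatives, including the removal of any 0, 6 or 72 h array. The 24 h call was lost without 0 h replicate 1 (-0.26) or 24 h replicate 2 (-0.25). It was also lost under median scaling (-0.18, adjusted p = 0.307) and with no filter on dim probes (-0.33, adjusted p = 0.0755). With only the arrays compared it was lost too (-0.33, adjusted p = 0.0723).

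Mxd4, another Sin3-recruiting antagonist and one of the members with an E-box in its window, had probes that overlap by 13 bases (chr5:34519323-34519382 and chr5:34519276-34519335, mm9). The brighter read 1.89 and 2.05 at 0 h, 1.81 and 1.78 at 6 h, 0.99 and 0.95 at 24 h, and 1.36 and 1.42 at 72 h. Its lowest arrays were those at 24 h, and those at 72 h lay between 24 and 6 h without overlap. It was 2-fold lower at 24 h (-1 ± 0.06, adjusted p = 0.000275) and 1.5-fold lower at 72 h (-0.58 ± 0.06, adjusted p = 0.000886), with -0.18 ± 0.06 at 6 h (adjusted p = 0.115). The step from 6 to 24 h was -0.82 ± 0.06 (adjusted p = 0.00138), and these 3 calls held under all 19 alternatives.

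The dimmer Mxd4 probe read -1.56 and -1.26 at 0 h, -1.74 and -1.97 at 6 h, -2.71 and -2.6 at 24 h, and -2.59 and -2.69 at 72 h. It fell with the brighter probe to 24 h (-1.24 ± 0.13, adjusted p = 0.00131) and remained there at 72 h (-1.22 ± 0.13, adjusted p = 0.000843). From 24 to 72 h the brighter probe rose by 0.42 ± 0.06 (adjusted p = 0.011), whereas the dimmer differed by 0.02 (95% interval -0.29 to 0.34, adjusted p = 0.922). The call on the brighter was lost without 72 h replicate 1 (0.45) and without 72 h replicate 2 (0.39). It was also lost under the mean over probes (0.22, adjusted p = 0.131) and with no filter on dim probes (0.42, adjusted p = 0.0648).

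Mnt, the widely expressed antagonist that pairs with Max and with Mlx, also has an E-box in its window (probe at chr11:74658915-74658974, mm9). At 24 and 72 h it was above 0 h, where Mxd4 was below, while from 6 to 24 h both fell. Mnt read 2.49 and 2.5 at 0 h, 2.96 and 3.07 at 6 h, 2.66 and 2.76 at 24 h, and 2.68 and 2.77 at 72 h. The 6 h arrays were the highest, the 0 h arrays the lowest, and the 24 and 72 h arrays overlapped. The rise at 6 h was 1.44-fold (0.52 ± 0.06, adjusted p = 0.00614) and was called under all 19 alternatives. The differences at 24 h (0.22 ± 0.06, adjusted p = 0.0385) and 72 h (0.23 ± 0.06, adjusted p = 0.0255) were smaller, and the step from 6 to 24 h was -0.31 ± 0.06 (adjusted p = 0.0209). The 24 h call was lost without either 0 h array, 24 h replicate 2 or either 72 h array (0.17 to 0.23). It was also lost under quantile normalization (0.15, adjusted p = 0.0729) and with no filter on dim probes (0.22, adjusted p = 0.139). With only the arrays compared it was lost too (0.22, adjusted p = 0.0781). The 72 h call was lost without either 0 h array or 72 h replicate 2 (0.19 to 0.24). It was also lost under quantile normalization (0.14, adjusted p = 0.0708) and with no filter (0.23, adjusted p = 0.0968). The step from 6 to 24 h lost its call without 6 h replicate 2 (-0.25) or 24 h replicate 1 (-0.26). Its call was also lost under median scaling (-0.21, adjusted p = 0.0917) and with no filter (-0.31, adjusted p = 0.0959). With only the arrays compared the step was not called either (-0.31, adjusted p = 0.0771).

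Mga, the large dual-domain partner of Max, was not called in any comparison (chr2:119792479-119792538, mm9). It read -1.22 and -1.53 at 0 h, -1.4 and -1.46 at 6 h, -1.32 and -1.29 at 24 h, and -1.26 and -1.42 at 72 h, so that the later arrays all lay between those at 0 h. The differences from 0 h were -0.06 (95% interval -0.34 to 0.23), 0.07 (-0.21 to 0.35) and 0.03 (-0.25 to 0.31), with adjusted p of 0.777, 0.661 and 0.84 in limma. Mxi1, also called Mad2, read between -5.11 and -4.15 and was well above background only on the replicate 1 array of each time (chr19:53450238-53450297, mm9). In a fit without the filter its differences were -0.08, -0.13 and -0.25 at 6, 24 and 72 h, and the lowest adjusted p was 0.787.

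Genes known as activated by Myc were mostly higher from 6 h on. Of 30 such genes on a textbook list, 19 had risen at 6 h, 25 at 24 h and 24 at 72 h, and 0 were called lower at any of these times in limma (0 also at an unadjusted p under 0.05, where 24, 25 and 24 were higher). The share of all tested genes that rose was 10.3%, 21.4% and 27.4%. The list, like those below, was chosen with earlier results of these data known, so its comparison with all genes is descriptive. The median difference over the list was 0.28, 0.57 and 0.53, against 0, -0.02 and 0 over all genes. The largest rises at 6 h were those of Gnl3, which encodes the nucleolar GTPase nucleostemin (0.89), the cyclin gene Ccnd2 (0.87), Ddx21, an RNA helicase of rRNA processing (0.8), and Rrs1, a ribosome assembly factor (0.76). Gnl3 read 1.31 and 1.22 at 0 h, 2.14 and 2.16 at 6 h, 2.45 and 2.4 at 24 h, and 2.47 and 2.43 at 72 h, so only the 24 and 72 h arrays overlapped. Nolc1, a nucleolar chaperone, was 0.88 higher at 24 h, and Shmt2, the mitochondrial serine hydroxymethyltransferase, 0.98 higher at 72 h. A second Nolc1 probe was 0.59 higher at 24 h (adjusted p = 0.00239) and -0.12 at 72 h (adjusted p = 0.21), where the brighter was 0.73 higher.

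The 5 list genes not called at 24 h, named after their values were seen, were Cad (0.18), Cdc25a (0.07), Cdk4 (0.06), Npm1 (0.14) and Tert (-0.22). Cdk4 was not called at 6 or 72 h either (0.15 and 0.05). The E-box was present in 6 of the 28 promoter windows found for the list (21.4%), that of Cdk4 included, against 7.15% of all windows. Between 6 and 24 h, 17 of the 30 rose and 0 fell (18 and 1 at an unadjusted p under 0.05), against 12.6% of all genes that rose. Between 24 and 72 h, 2 rose, Ccnd2 and Shmt2, and 5 fell, Eif4a1, Fbl, Polr1b, Srm and Tfrc, all named after their values were seen, against 10.8% and 10.9% of all genes. In this step 0 rose and 0 fell under median scaling, with no filter on dim probes, with only the arrays compared and without 72 h replicate 1. When any 0 or 6 h array was left out 1 rose and 3 fell, 0 rose and 2 fell without 24 h replicate 1, and 2 rose and 3 fell without 24 h replicate 2. The counts were 1 and 0 without 72 h replicate 2. In that interval 21.7% of all genes were called in either direction, and Myc was not. The count at 6 h was 10 without 0 h replicate 1, 0 h replicate 2 or 6 h replicate 1, and 9 without 6 h replicate 2, and 8 with no filter on dim probes. The count from 6 to 24 h was 7 with no filter on dim probes and 7 with only the arrays compared. It also dropped when either 6 h array was left out. The scaling on array medians moved the median of all genes to 0.13 at 24 h and 0.18 at 72 h and raised the share of higher genes among all calls from 51.5% to 74.6% and from 52.7% to 75.1%. With it the list's median was 0.72 at both times, and 26 genes were higher at each.

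**Figure D4:**
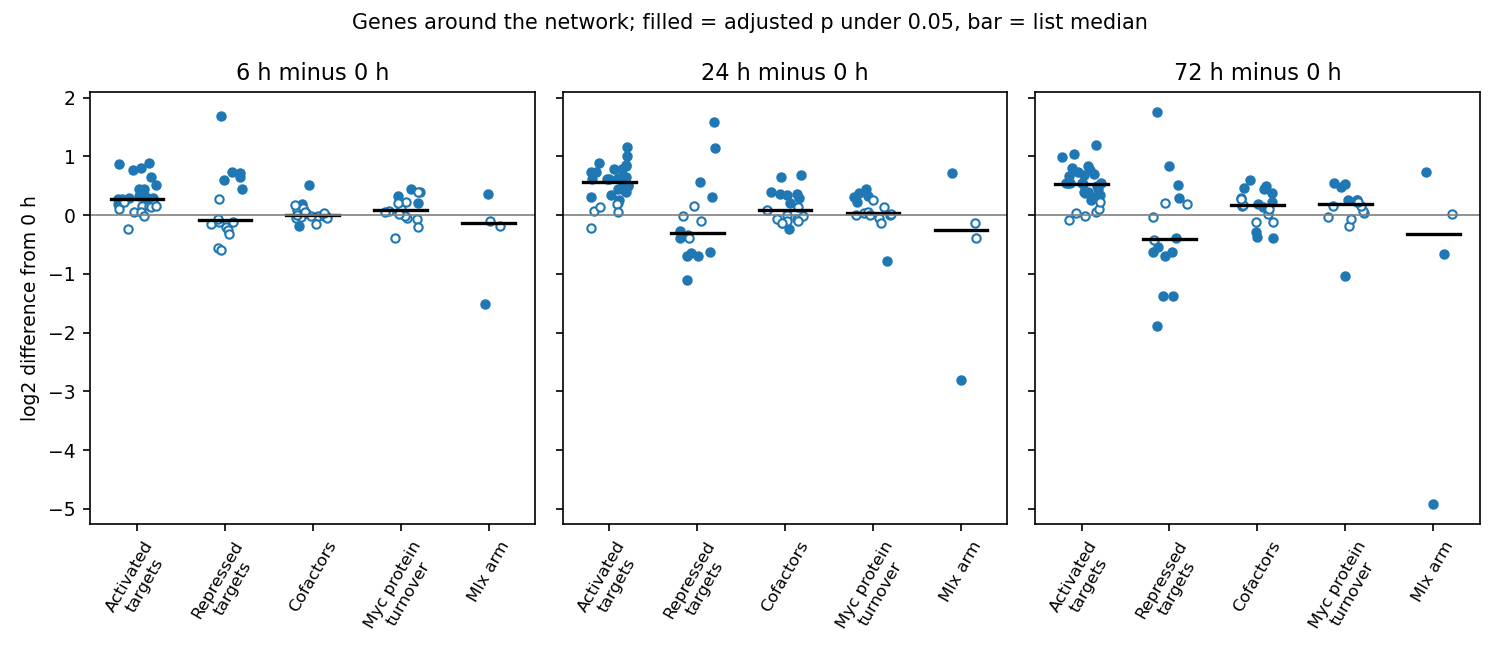
Log2 difference from 0 h of each tested gene on the lists of Myc-activated targets, Myc-repressed targets, cofactors, Myc protein turnover genes and the Mlx arm, at 6, 24 and 72 h; filled points had an adjusted p under 0.05 and bars are list medians. Most activated targets lie above 0, with medians of 0.28, 0.57 and 0.53, the repressed targets spread to both sides, and Txnip is the lowest point at every time.

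Genes known as repressed by Myc went both ways. Of 16 tested, 6 rose and 0 fell at 6 h in limma (7 and 5 at an unadjusted p under 0.05), and 4 rose and 8 fell at both 24 and 72 h. Of all genes, 10.3%, 21.4% and 27.4% rose and 7.24%, 20.1% and 24.6% fell at 6, 24 and 72 h. The list's median was -0.09, -0.31 and -0.41. Cdkn1a, the gene of the cell cycle inhibitor p21 and a classic Myc-repressed gene, went against the list's name at every time. It read -1.83 and -1.69 at 0 h, -0.1 and -0.05 at 6 h, -0.2 and -0.13 at 24 h, and 0.01 and 0 at 72 h. All later arrays were far above those at 0 h, with differences of 1.68 ± 0.06 (adjusted p = 0.000148), 1.59 ± 0.06 (adjusted p = 9.36e-05) and 1.76 ± 0.06 (adjusted p = 4.03e-05). Cdkn1a is also a target of p53 and of mitogen signalling.

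The antiproliferative gene Btg2 was 0.74 higher at 6 h and then -0.7 and -1.38 at 24 and 72 h, reading 2.53 and 2.39 at its peak and 0.33 and 0.35 at 72 h. Thbs1, which encodes the matrix protein thrombospondin 1, was 0.72 higher at 6 h, -0.1 at 24 h (adjusted p = 0.307) and -0.7 at 72 h. The secreted chaperone gene Clu was 0.65 and 1.14 higher at 6 and 24 h and -0.04 at 72 h (adjusted p = 0.733). Gas1, a growth arrest gene, fell to -1.1 at 24 h and -1.88 at 72 h, and the differentiation factor gene Cebpa to -1.37 at 72 h. With other settings the number of repressed targets that fell at 6 h was 0 to 3.

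Among 19 tested cofactors of Myc and Mxd proteins, 2 rose and 1 fell at 6 h, 8 and 2 at 24 h, and 10 and 3 at 72 h, with medians of 0, 0.08 and 0.17. The share called, 15.8%, 52.6% and 68.4%, stood beside 17.6%, 41.5% and 52% of all genes. The number that rose at 72 h was 6 without 0 h replicate 2 or 72 h replicate 1, and the number that rose at 6 h was 1 without any 0, 6 or 72 h array. The number that fell at 24 h was 5 under quantile normalization and 0 under median scaling. It also dropped when any array other than 24 h replicate 1 was left out. The number that rose at 24 h was 5 with no filter on dim probes and 5 with only the arrays compared. Sap30, a subunit of the Sin3 deacetylase complex that Mxd proteins recruit, read 0.57 and 0.48 at 0 h, 1 and 1.07 at 6 h, 1.23 and 1.18 at 24 h, and 1.04 and 0.98 at 72 h, and its differences were 0.51, 0.68 and 0.49. The AAA+ ATPase genes Ruvbl1 and Ruvbl2, whose products bind Myc within chromatin remodelling complexes, were 0.4 and 0.64 higher at 24 h and 0.44 and 0.6 higher at 72 h. L3mbtl2 and Pcgf6, both of the Polycomb-type complex with Mga and Max, were 0.36 higher at 24 h and 0.46 higher at 72 h, respectively. The members that fell at 72 h, named after their values were seen, were the deacetylase gene Hdac1 (-0.39), the elongation factor gene Paf1 (-0.38) and the kinase gene Cdk9 (-0.29), and with scaling on array medians they were not called lower. Ncor1, the 1 gene that fell at 6 h (-0.18, adjusted p = 0.0319), lost its call in 10 of 19 alternatives, among them the removal of any 0, 6 or 72 h array (-0.17 to -0.19, adjusted p = 0.0701 to 0.15), and another of its probes was 1.3 higher at 72 h.

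Of 16 genes of Myc protein turnover, 4 rose and 0 fell at 6 h in limma (6 and 2 at an unadjusted p under 0.05), 5 rose and 1 fell at 24 h, and 7 rose and 1 fell at 72 h, or 25%, 37.5% and 50% called against the same background, with medians of 0.09, 0.04 and 0.19. Usp36, a nucleolar deubiquitinase of Myc, was 0.44 higher at 6 h, 0.44 at 24 h and 0.48 at 72 h, with 0.25 and 0.29 at 0 h against 0.68 to 0.78 on the later arrays. Ppp2r5a, which encodes a regulatory subunit of the phosphatase PP2A known to act on Myc, read 5.28 and 5.24 at 0 h, 5.06 and 5.07 at 6 h, 4.52 and 4.44 at 24 h, and 4.18 and 4.28 at 72 h, and was -0.78 at 24 h and -1.03 at 72 h (adjusted p = 9.3e-05). Cip2a, an inhibitor of PP2A on Myc, was 0.54 higher at 72 h (adjusted p = 0.00469). The list's counts were not stable. At 6 h, 1 turnover gene rose under each of median scaling, quantile normalization, no filter on dim probes and only the arrays compared. The 6 h number also dropped when any 0, 6 or 72 h array was left out. Under quantile normalization 2 fell at 6 h. The number that rose at 24 h was 3 with no filter and with only the arrays compared, and 8 under median scaling.

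In the Mlx arm, 4 of 5 genes were tested, and 1 rose and 1 fell at 6 and at 24 h and 1 rose and 2 fell at 72 h, with medians of -0.14, -0.26 and -0.33 beside 0, -0.02 and 0 over all genes. At the same times 17.6%, 41.5% and 52% of all genes were called in either direction, beside 2, 2 and 3 of these 4. Mlx was 0.71 ± 0.08 higher at 24 h (adjusted p = 0.00175) and 0.73 ± 0.08 at 72 h (adjusted p = 0.00106), and its 6 h difference of 0.36 lost its call without any 0, 6 or 72 h array (0.27 to 0.45, adjusted p up to 0.157). Txnip, a glucose-responsive target of the Mlx partners, fell throughout on its brighter probe. That probe read 3.71 and 3.56 at 0 h, 2.17 and 2.05 at 6 h, 1.02 and 0.63 at 24 h, and -1.17 and -1.41 at 72 h, without overlap between times. It was 30.3-fold lower at 72 h (adjusted p = 3.16e-05). A second Txnip probe was not called at 6 h (-1.04, adjusted p = 0.133) or from 6 to 24 h (-0.94, adjusted p = 0.14). It was called lower at 24 h (-1.98, adjusted p = 0.0109) and 72 h (-4.12, adjusted p = 0.000581). Mlxipl, the gene of the glucose-sensing partner ChREBP, was -0.67 at 72 h (adjusted p = 0.0137), a call lost without 0 h replicate 1 (-0.68, adjusted p = 0.054), 0 h replicate 2 (-0.66, adjusted p = 0.0562) or 72 h replicate 1 (-0.63, adjusted p = 0.0649), and under normexp correction (-0.23, adjusted p = 0.129).

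The tested genes with a RefSeq symbol and a range of at least 1 between time means were ranked by the Pearson correlation of their 8 array values with those of Myc. The 5 highest were Ankrd1 (0.9988), Nt5dc3 (0.997), Mllt11 (0.9967), Eps8 (0.9958) and Plaur (0.9954), out of 1763 candidates of which 93 were above 0.95. They are described only, since all genes share the same 8 arrays and 4 times. Ankrd1, an ankyrin repeat gene known as a YAP target, was 2.55, 3.38 and 3.49 above 0 h at 6, 24 and 72 h. Plaur, the urokinase receptor gene, was 1.43, 1.74 and 2 above 0 h at the same times, beside 1.43, 1.92 and 2.05 for Myc.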

How the data were processed

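RNA from Csk-/- MEFs with inducible c-Src was labelled with Cy3 and hybridised to a 1-colour Agilent mouse array, per the labels' protocols. Feature Extraction produced the authors' scanner files, in version 10.5.1.1 with mm9 coordinates per the file headers and in version 10.7.3.1 per the submitters' processing notes. Which of the versions applies was not settled. The processed signal is a linear intensity from which background was subtracted, per the file headers. The deposited table of values differs from this intensity by at most 0.497%. There was 1 slide and 1 scan. The replicate number followed 1 index of the position on the slide and the time the other, so time and that position cannot be told apart.

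Intensities were put on the log2 scale, the 75th percentile of the 59305 non-control spots was subtracted, outlier spots were left out and spots of a probe were averaged. The percentile lay between 370.3 and 393, with 0 saturated spots. The brightest kept probe stood for its gene. Names came from RefSeq by accession (26582 probes), symbol (2602) or synonym (492), and otherwise from the file (26005). The fits used limma (version 3.58.1, R version 4.3.3; 4 residual degrees of freedom, prior 1.7). The number of arrays limits the precision, and the median SE of a difference was 0.0753. On simulated data with 20833 genes for the comparison of 6 with 0 h, 55.6% of genes changed 1.5-fold and 80.4% of those changed 2-fold were called. Far fewer genes were changed in the simulation than were called in the data. The adjustment is stricter when fewer genes change, so these shares do not describe the comparisons reported.

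The alternatives were normexp background correction (offset 50), median scaling, quantile normalization, other filters, every probe or the mean over probes, the deposited table, a common floor, only the arrays of the times compared, a replicate block and leaving out each array. Members and lists were chosen with earlier results of these data known. All probes of the members were named. From each list, the up to 4 called genes with the largest differences in a comparison with 0 h could be named; list genes not called at 24 h, those called from 24 to 72 h and cofactors that fell were named after their values were seen. Src and Csk were named as checks, and the 5 genes most like Myc for their likeness. Some genes of the lists are counted but not reported here by name.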

Additional observations from a re-analysis of the deposited data

Results flagged for a closer look

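For 6 members the difference from 0 h itself differed between consecutive times, by the test of the step between them (limma, adjusted over all genes). From 6 to 24 h, 44.4% of the 9 tested members were called, against 26.2% of all genes. Myc rose further by 0.49, while Mxd1 (-1.04, brighter probe), Mxd4 (-0.82) and Mnt (-0.31) came down. From 24 to 72 h, 44.4% were called again, against 21.7% of all genes. Mxd3 (-0.92), Mycn (-0.78) and Mxd1 (-0.34) fell and Mxd4 rose (0.42, brighter probe). The Mxd1 step of -1.04 was not called on the dimmer probe (-0.1, adjusted p = 0.256), nor was the Mxd4 rise (0.02, adjusted p = 0.922).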

How the results depend on the processing

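The number of genes called moved by over 1.5 times for 6 against 0 h (3660 with all arrays) under median scaling (2283), with no filter on dim probes (871) and with only the arrays compared (1813), and was 1217 to 3593 without 1 array. For 24 against 0 h (8643) it was 5600 with no filter and 6634 to 7899 without 1 array, and for 72 against 0 h (10841) it was 8171 to 10954. For 24 against 6 h (5452) it was 2044 with no filter, 2681 with only the arrays compared and 2626 to 4655 without 1 array. For 72 against 24 h (4513) it was 2627 under median scaling, 929 with no filter, 1108 with only the arrays compared and 1082 to 3920 without 1 array. The cause was not tested beyond the fewer arrays in some of these fits. Members that fell at 6 h (1, Mxd3) were 2 under normexp correction and 0 under median scaling, with no filter, with every probe tested, with only the arrays compared and with the replicate block, and 0 to 1 without 1 array. Members higher at 24 h (2) were 1 under quantile normalization, with no filter and with only the arrays compared, and 1 to 3 without 1 array; those lower (3) were 1 with no filter and with only the arrays compared, and 1 to 3 without 1 array. Members higher at 72 h (3) were 1 to 3 without 1 array. Members that rose from 24 to 72 h (1, Mxd4) were 0 with no filter and under the mean over probes, and 0 to 2 without 1 array.

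The differences that turned sign were uncalled with all arrays. Mycn at 24 h was 0.03 under normexp correction, 0.14 under median scaling and -0.06 to 0.04 without 1 array. Under median scaling Mxd1 was 0.06 at 24 h, and the step from 6 to 24 h was 0.08 for Mxd3 and 0.05 for Max. The Mnt step from 24 to 72 h was -0.01 under quantile normalization. Over the fits without 1 array, Mga was -0.21 to 0.1 at 6 h, -0.09 to 0.23 at 24 h, -0.13 to 0.19 at 72 h and -0.12 to 0.04 from 24 to 72 h. The step from 6 to 24 h was -0.28 to 0.19 for Max and -0.09 to 0.07 for Mxd3. The step from 24 to 72 h was -0.03 to 0.06 for Mnt, -0.01 to 0.46 for Max (called in 1 of these fits, without 24 h replicate 2), -0.39 to 0.1 for Mycl and -0.03 to 0.08 for the dimmer Mxd4 probe. Median scaling raised the share of higher genes among calls from 58.8% to 76.9% at 6 h.

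The replicate numbers were not treated as pairing the arrays: differences between replicates correlated at 0.06 to 0.17 between times, always above 0. The replicate 1 array had the higher share of spots well above background at each time (52.1% to 54.7% against 49.9% to 51.5%), and its part in the results was not tested. With the replicate block, 4070, 9205 and 11393 genes were called against 0 h, the Mxd3 call at 6 h was lost (adjusted p = 0.0534) and Max was called at 24 h (adjusted p = 0.0367). Mycl gave no value when a probe had to be well above background on all arrays. Signal near background limits Mycl and Mxi1.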
